A study of Mus musculus with 16 samples.

Results

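The tumor suppressor p53 and 9 of its transcriptional targets other than *Cdkn1a* (p21) were followed through sorted thymocytes: *Trp53*, which encodes p53, and *Mdm2*, *Pmaip1*, *Bbc3*, *Zmat3*, *Ccng1*, *Trp53inp1*, *Phlda3*, *Sesn2* and *Ddit4*. They were taken by gene symbol from the count tables of both experiments, which list the same 22114 protein-coding genes, and all 10 were found in each table and passed the filter on low counts in every fit. No exon of these 10 genes overlaps another annotated gene.

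The study examined DN3 thymocytes (CD4-CD8-CD25+CD44- T-cell progenitors), which in *CD2-Lmo2* transgenic (Lmo2Tg) mice hold the pre-leukemic stem cells. In the label-retention experiment, *TetOP-H2B-GFP* KI/+ mice that carry the *Lmo2* transgene were given doxycycline for 6 weeks to mark chromatin with GFP and were then chased without it for 2 weeks. DN3 cells that had kept the label (GFPhi, cell cycle-restricted, 3 libraries) were compared with those that had diluted it by division (GFPlo, 3 libraries), so all 6 libraries carry both the transgene and the reporter. In the genotype experiment, total DN3 cells of 6-week-old mice were compared between wild-type (WT, 3 libraries), *p21*-deficient (p21-/-, 2 libraries), Lmo2Tg (2 libraries) and Lmo2Tg;p21-/- (2 libraries). All lines were on a C57BL/6J background. The transgene is driven by *CD2* regulatory sequence, and *Lmo2* expression was measured here in DN3 cells only. The p21-/- sample labelled replicate 3 was not analysed here. The labels give replicate numbers but do not say which mice entered each library, so p-values measure the spread between these libraries. In bulk libraries such as these, fewer cells of a type and less RNA per cell cannot be told apart.

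p53 is a transcription factor that is kept scarce by the ubiquitin ligase MDM2 and accumulates after DNA damage or oncogenic stress, mostly through protein stability and not through its mRNA. It binds a response element near its targets, which then halt the cell cycle, trigger apoptosis or restrain growth signalling. In thymocytes p53 guards the stages at which antigen receptor genes are cut and rejoined, and its loss is a frequent step toward T-cell lymphoma in mice.

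Because these genes are joined by a shared regulator, the 300 bases around their annotated starts (250 before and 50 after, RefSeq, GRCm38.p6) were searched for the p53 response element, a pair of 10-base motifs with a spacer of 0 to 13 bases. Since each motif reads the same on both strands, one search covers both. Windows were given for 7 of the 10 genes. The closest matches upstream of a start were these, 5′ to 3′ on the strand of the gene and with the matched motifs in capitals.
Ccng1: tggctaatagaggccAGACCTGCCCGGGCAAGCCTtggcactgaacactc
Trp53: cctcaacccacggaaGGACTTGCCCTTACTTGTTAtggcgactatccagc
Bbc3: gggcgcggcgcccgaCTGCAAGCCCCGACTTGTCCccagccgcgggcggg
The *Ccng1* stretch (chr11:40755447-40755496, minus strand, upstream of the annotated gene) held a match with 1 mismatch and no spacer, from 195 to 176 bases before the start. Among all 32851 windows of this length, 0.627% had a match that close. *Trp53* itself (chr11:69580269-69580318, plus strand, upstream of the gene) and *Bbc3* (chr7:16309471-16309520, plus strand, before an internal start and inside the annotated span of the gene) each had a best match with 3 mismatches, which 15.6% of all windows reach. The best match of *Mdm2* had 4 mismatches, which 40.4% of windows reach, and those of *Phlda3* (5 mismatches, 68.7% of windows) and of *Sesn2* and *Ddit4* (6 mismatches, 86.7%) were no closer than those of most windows. These are matches of letters, and no binding was measured.

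Total counts per library were 26861394 to 31106213 in the label-retention experiment and 13864936 to 16837667 in the genotype experiment. Values are CPM, counts divided by a library size that edgeR's TMM method had adjusted, which makes libraries of one table comparable, and levels in different tables were never tested against each other. *Cdkn1a*, the gene deleted in the p21-/- mice, was at 36.5, 37.5 and 49.0 CPM in WT libraries, 14.3 and 17.7 CPM in p21-/-, 32.8 and 26.3 CPM in Lmo2Tg libraries a and b, and 4.35 and 3.50 CPM in Lmo2Tg;p21-/-. It was lower in the deleted genotypes without overlap but not absent, and counts per gene do not show which exons the remaining reads came from. *Lmo2* was at most 0.306 CPM in WT and p21-/- libraries and at least 41.4 CPM in the transgenic ones, as the labels state. The DN3 marker *Il2ra*, which encodes CD25, was high in every library (1410 to 3224 CPM). Not all DN3 markers were. *Ptcra* averaged 152.5 CPM in WT, 29.1 CPM in Lmo2Tg;p21-/- and 26.1 CPM in GFPlo. *Rag2* averaged 72.3 CPM in WT, 14.35 CPM in Lmo2Tg and 19.5 CPM in GFPlo. One library stood apart: GFPhi replicate 3 had 284.9 CPM of *Lmo2*, against 29.5 and 53.8 CPM in GFPhi replicates 1 and 2 and 35.8 to 42.3 CPM in GFPlo, and the next principal component after that of the GFP label, with 27.0% of the variance, set it apart. Results of that experiment are therefore given with and without it.

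In GFPhi replicates 1 and 2, 9 of the 10 genes were higher than in every GFPlo library (against 32.7% of all genes), and the rise went from 1.2-fold for *Mdm2* to 15.8-fold for *Pmaip1*, whereas *Trp53* mRNA did not pass the test. GFPhi replicate 3 did not share this pattern. It lay within the GFPlo range for *Pmaip1*, *Sesn2* and *Ddit4*, above it for *Mdm2* alone, and below it for the other 6. Over all 6 libraries, edgeR (quasi-likelihood, Benjamini-Hochberg) called 0 of the 10 at an adjusted p of 0.05, while it called 14.9% of the 11581 genes tested. At an unadjusted p of 0.05, *Pmaip1*, *Mdm2*, *Sesn2* and *Ddit4* were higher (4 of 10, against 15.7% of all genes). DESeq2 called 4 (*Pmaip1*, *Sesn2*, *Mdm2* and *Ccng1*) and limma-voom called 0. Without GFPhi replicate 3, all but *Trp53* were called higher by edgeR (9 of 10), against 19.5% of 11745 genes. Their median log2 fold change was 0.66 over all 6 libraries and 1.08 without that library, where the median of all genes was 0.02 and 0.01. The paper had already named *Pmaip1*, *Zmat3*, *Phlda3*, *Sesn2* and *Ddit4* as p53 genes raised in GFPhi cells of this experiment. The counts and medians of the set in this contrast are therefore not independent evidence.

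**Figure D1:**
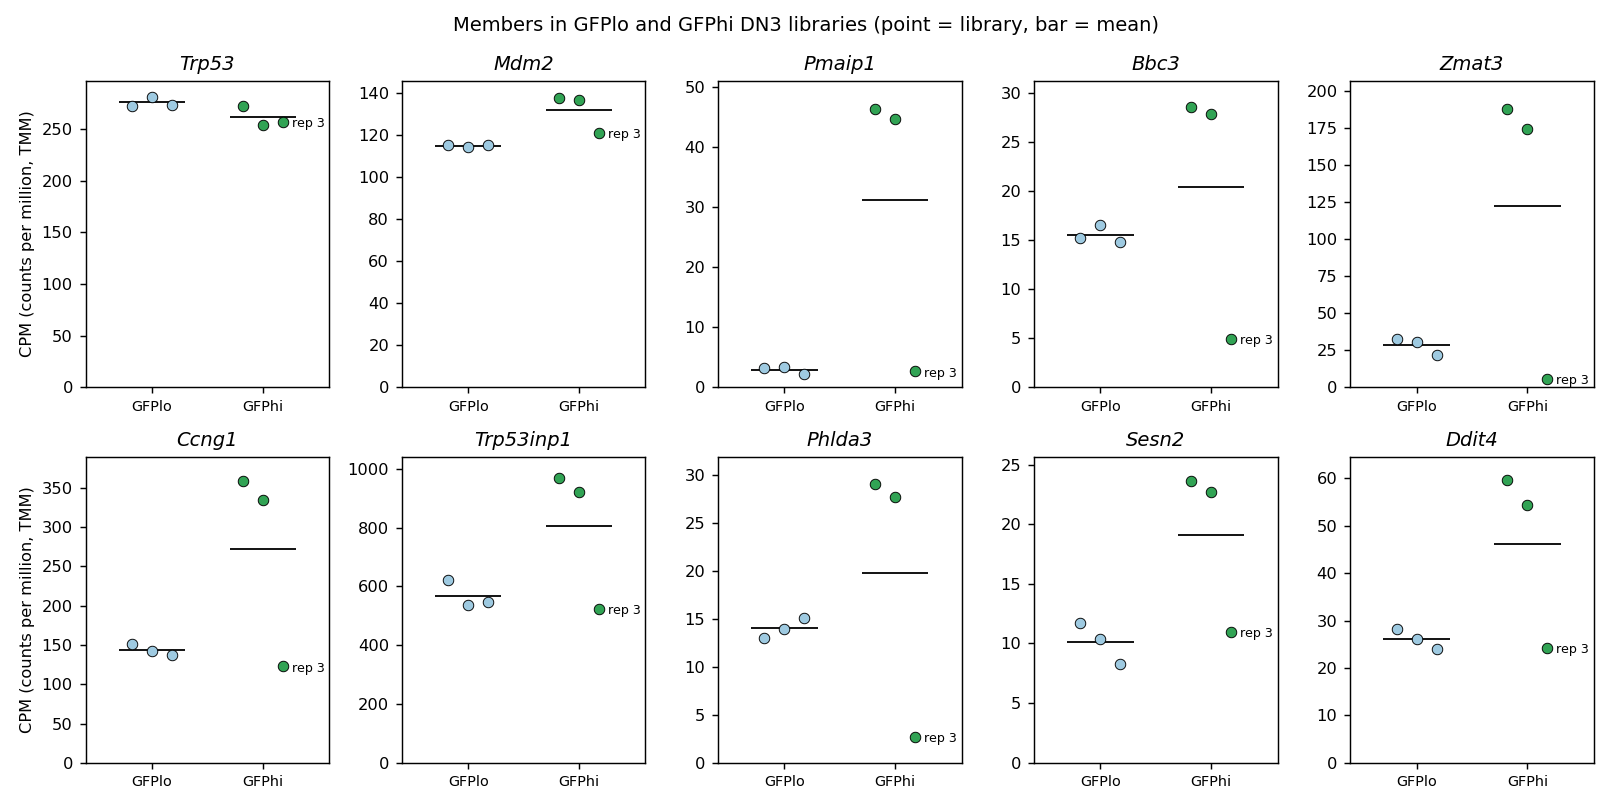
Level of each gene (CPM, TMM-scaled, linear axis from 0) in the 3 GFPlo and 3 GFPhi libraries, with a point for each library and a bar at the group mean. In 9 panels GFPhi replicates 1 and 2 lie above all GFPlo points, and GFPhi replicate 3 (marked rep 3) falls back to or below the GFPlo points in all of them but *Mdm2*.

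The genes of p53 itself and of its main inhibitor moved least. *Trp53* was at 273, 281 and 274 CPM in GFPlo replicates 1 to 3 and at 273, 255 and 257 CPM in GFPhi replicates 1 to 3. Its log2 fold change was -0.06 without GFPhi replicate 3 (SE 0.05, adjusted p = 0.39, edgeR) and -0.08 with it. *Mdm2* was at 115, 114 and 115 CPM in GFPlo and at 138, 137 and 121 CPM in GFPhi libraries, so the groups did not overlap, which held for *Mdm2* alone of the 10 (against 19.6% of all genes higher without overlap). *Mdm2* changed by 0.26 (SE 0.04, adjusted p = 0.0043) without GFPhi replicate 3 and by 0.20 (SE 0.07, adjusted p = 0.096) over all 6. Although *Mdm2* is the target that feeds back on p53, it had the smallest rise of the 9 genes called.

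The apoptosis genes differed from each other. *Pmaip1*, which encodes the BH3-only protein NOXA, was at 3.22, 3.39 and 2.13 CPM in GFPlo, 46.4 and 44.7 CPM in GFPhi replicates 1 and 2, and 2.64 CPM in GFPhi replicate 3. Its log2 fold change of 3.98 (SE 0.17, adjusted p = 6.1e-05) without GFPhi replicate 3 was the largest of the 10, and it was 3.42 (SE 0.99, adjusted p = 0.068) with it. *Bbc3*, which encodes PUMA, another BH3-only protein, was at 15.2, 16.5 and 14.7 CPM in GFPlo, 28.5 and 27.8 CPM in GFPhi replicates 1 and 2, and 4.92 CPM in GFPhi replicate 3. *Bbc3* rose by 0.87 (SE 0.08, adjusted p = 0.00046) without GFPhi replicate 3, yet in that library it stood at 31.8% of the GFPlo mean. The spread of *Bbc3* within GFPhi thus exceeded its difference between the groups when all 3 libraries were used (log2 fold change 0.40, SE 0.60, adjusted p = 0.67).

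*Zmat3*, an RNA-binding zinc finger protein that acts in p53-dependent tumor suppression, gave the widest split. It was at 32.2, 30.3 and 21.9 CPM in GFPlo and at 188 and 174 CPM in GFPhi replicates 1 and 2, a 6.47-fold rise (log2 2.69, SE 0.15, adjusted p = 8.7e-05), or 2.12 (SE 1.06, adjusted p = 0.22) over all 6 libraries. In GFPhi replicate 3 it was 5.55 CPM, 19.7% of the GFPlo mean. *Ccng1*, the cyclin G1 gene whose product binds a phosphatase that acts on MDM2, went from 152, 142 and 137 CPM in GFPlo to 359 and 335 CPM in GFPhi replicates 1 and 2 (log2 1.28, SE 0.06, adjusted p = 6.1e-05), with 123 CPM in replicate 3 and a log2 fold change of 0.92 (SE 0.38, adjusted p = 0.15) over all 6 libraries. *Trp53inp1*, a stress protein of the nucleus and of autophagosomes, was the most abundant of the set at 622, 537 and 546 CPM in GFPlo, and it was at 969, 921 and 525 CPM in GFPhi libraries (log2 0.74, SE 0.08, adjusted p = 0.00065 without replicate 3, and 0.50, SE 0.23, adjusted p = 0.19 with it). For both genes replicate 3 was below the lowest GFPlo library.

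The remaining 3 targets restrain growth signalling. *Phlda3*, which competes with AKT for membrane lipids, was at 13.02, 13.90 and 15.07 CPM in GFPlo and at 29.0, 27.7 and 2.72 CPM in GFPhi replicates 1 to 3. Like *Zmat3*, it had both the highest and the lowest values of the experiment in GFPhi libraries, with replicate 3 at 19.4% of the GFPlo mean. Its log2 fold change went from 1.02 (SE 0.09, adjusted p = 0.00034) without GFPhi replicate 3 to 0.50 (SE 0.75, adjusted p = 0.67) with it, where limma-voom gave -0.074 and so turned the direction. *Sesn2*, a sestrin that inhibits mTORC1 when amino acids are short, was at 11.7, 10.4 and 8.24 CPM in GFPlo and at 23.7, 22.7 and 10.98 CPM in GFPhi. *Ddit4* (REDD1), which inhibits mTORC1 under hypoxia and other stress, was at 28.1, 26.2 and 24.0 CPM in GFPlo and at 59.7, 54.5 and 24.3 CPM in GFPhi. Without replicate 3 these genes rose by 1.21 (*Sesn2*, SE 0.14, adjusted p = 0.0011) and 1.13 (*Ddit4*, SE 0.09, adjusted p = 0.00021), and over all 6 libraries the values were 0.92 (SE 0.32, adjusted p = 0.10) and 0.82 (SE 0.33, adjusted p = 0.14). Their replicate 3 values lay inside the GFPlo range, unlike those of *Phlda3*, *Bbc3* and *Zmat3*.

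**Figure D2:**
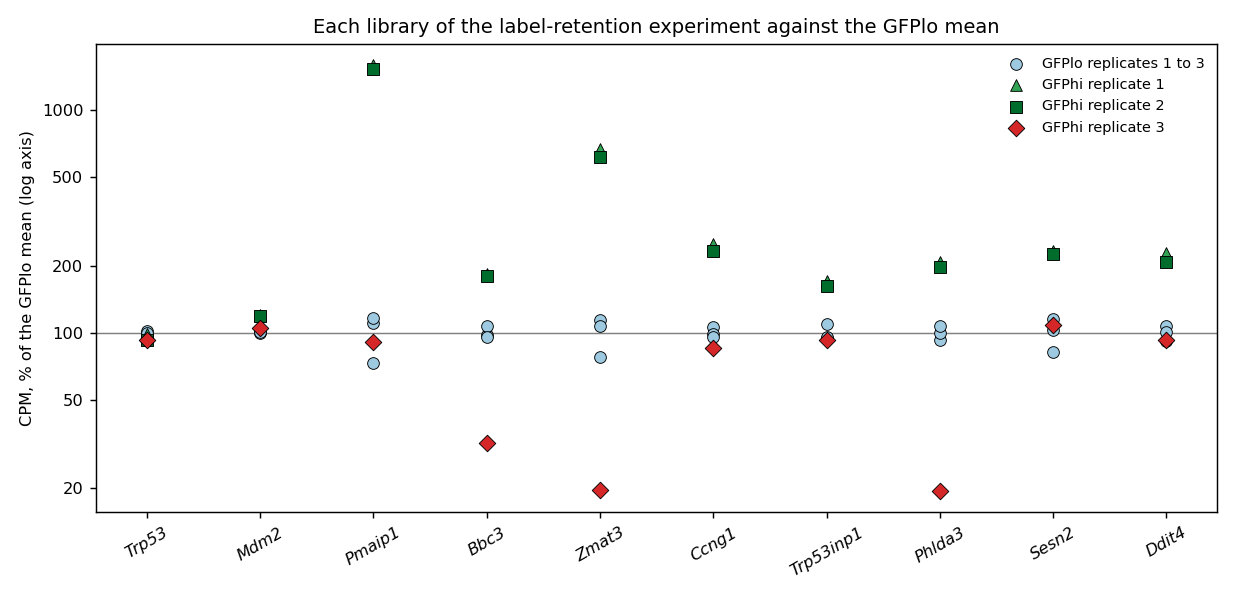
Level of each gene in the 6 label-retention libraries as a percentage of its GFPlo mean (log axis), with GFPlo libraries as circles and each GFPhi library by its own symbol. GFPhi replicates 1 and 2 lie close together at every gene, and GFPhi replicate 3 sits between 85.6% and 109% except at *Bbc3*, *Zmat3* and *Phlda3*, where it drops to 31.8%, 19.7% and 19.4%.

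*Cdkn1a*, left out of the set, had the same split, with 8.08 to 12.0 CPM in GFPlo, 35.8 and 29.9 CPM in GFPhi replicates 1 and 2, and 6.55 CPM in replicate 3. Markers of other cell types also moved with the GFP label. Of 10 B cell markers listed, 9 were found. Their summed level was 41.6 to 45.8 CPM in GFPlo and 61.9, 138 and 79.6 CPM in GFPhi replicates 1 to 3. Of the 9 tested, 7 were called higher without GFPhi replicate 3, or 5 of 8 with it (against 19.5% and 5.37% of all genes). *Ms4a1* and *Pax5*, which define B cells, were at or under 0.097 CPM in GFPlo libraries. The B cell sum was 2.24 times as high in GFPhi replicate 2 as in replicate 1. The largest difference of the 10 genes between these libraries was 1.10-fold (*Ddit4*), and a comparison of 2 libraries cannot relate these values. Of markers of later thymocytes 3 of 8 were called higher and 2 lower, of myeloid cells 1 and 1 of 6, of erythroid cells 0 of 6, and of thymic stroma 2 and 0 of 3, all without GFPhi replicate 3. With it these counts were 1 and 0 of 8, 0 of 4, 0 of 6, and 1 and 0 of 3. The summed markers of earlier T progenitors were 541 to 610 CPM in GFPlo, 468 and 466 CPM in GFPhi replicates 1 and 2 and 288 CPM in replicate 3. The part of B cells or of any other of these cell types in the results was not tested.

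In the genotype experiment most of these genes were higher in the transgenic genotypes. In Lmo2Tg libraries, *Pmaip1*, *Zmat3*, *Bbc3*, *Phlda3*, *Mdm2* and *Ccng1* rose over WT (6 of 10 by edgeR's quasi-likelihood test at an adjusted p of 0.05, against 19.7% of 11840 genes called higher). In Lmo2Tg;p21-/- libraries, *Zmat3*, *Pmaip1*, *Bbc3*, *Phlda3*, *Trp53inp1* and *Ccng1* rose over p21-/- (6 of 10, against 16.3% of genes). These contrasts share no library, although they share 1 estimate of the spread, and 5 genes were called in both (against 10.9% of all genes called higher in both). edgeR called no gene of the set lower in either. The median log2 fold change of the 10 was 0.50 in the former and 0.63 in the latter, where the median of all genes was -0.01 and -0.00.

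**Figure D3:**
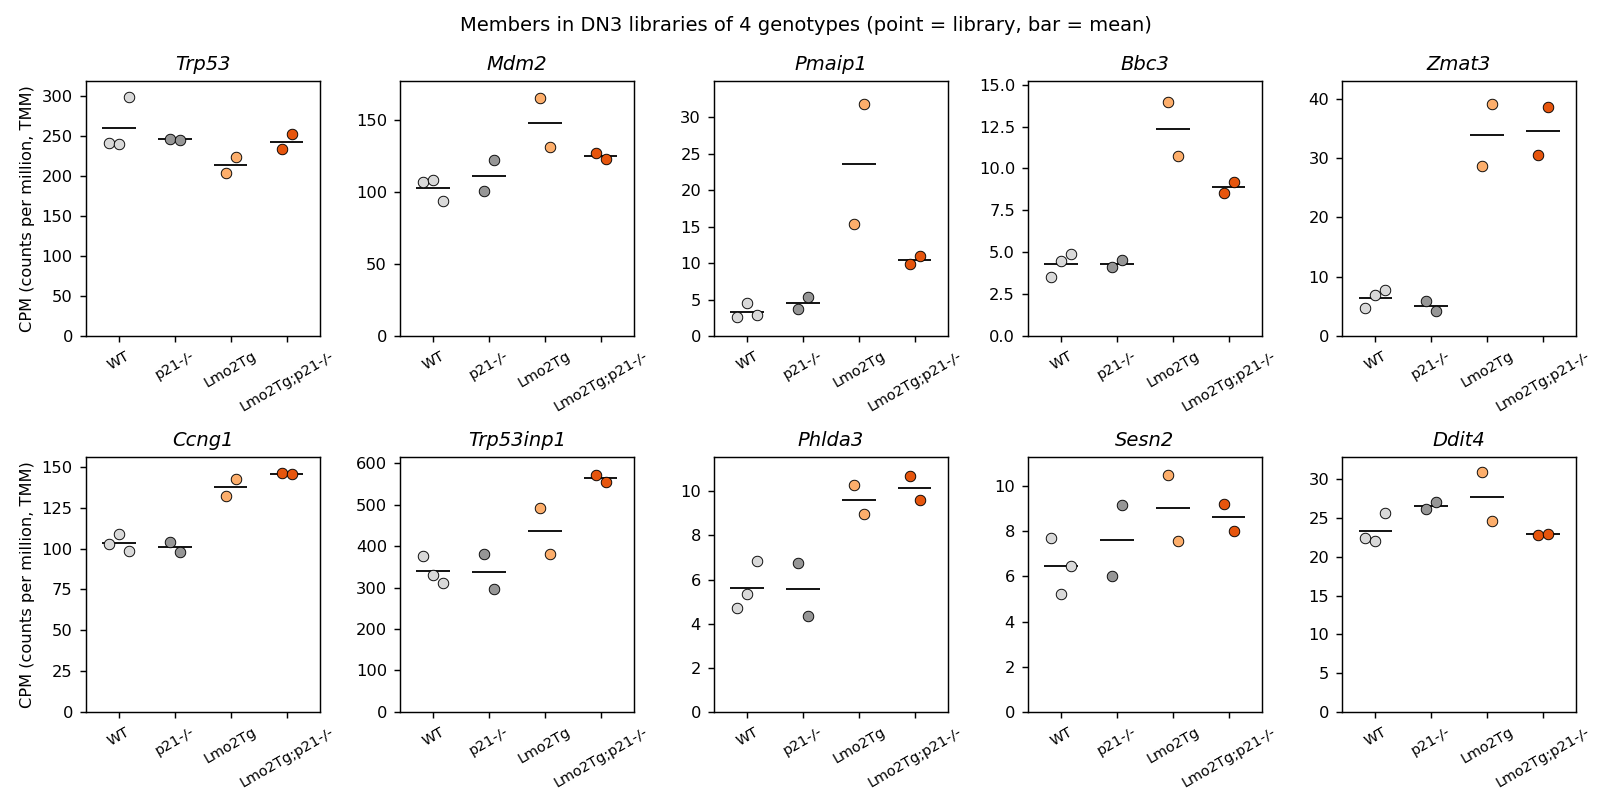
Level of each gene (CPM, TMM-scaled, linear axis from 0) in DN3 libraries of WT, p21-/-, Lmo2Tg and Lmo2Tg;p21-/- mice, with a point for each library and a bar at the group mean. In 7 panels, all but *Trp53*, *Sesn2* and *Ddit4*, every transgenic point lies above every non-transgenic one, for *Mdm2* and *Trp53inp1* by less than 1 CPM, and the *Pmaip1* and *Bbc3* points of Lmo2Tg;p21-/- lie below those of Lmo2Tg.

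*Zmat3* was about as high in both transgenic genotypes. It was at 4.72, 6.99 and 7.74 CPM in WT, 5.92 and 4.18 CPM in p21-/-, 28.6 and 39.2 CPM in Lmo2Tg, and 30.5 and 38.5 CPM in Lmo2Tg;p21-/- libraries. That is a 5.23-fold rise with *p21* present (log2 2.39, SE 0.22, adjusted p = 1.7e-05) and a 6.82-fold rise without it (log2 2.77, SE 0.25, adjusted p = 2.0e-05). *Ccng1* also separated transgenic from non-transgenic libraries, at 103, 109 and 98.5 CPM in WT, 104 and 98.1 CPM in p21-/-, 132 and 143 CPM in Lmo2Tg, and 146 and 145 CPM in Lmo2Tg;p21-/-. Its rises were smaller, at 0.41 (SE 0.07, adjusted p = 0.0016) and 0.53 (SE 0.08, adjusted p = 0.00073). *Phlda3* followed the same order, from 4.72, 5.34 and 6.83 CPM in WT and 6.74 and 4.36 CPM in p21-/- to 10.3 and 8.95 CPM in Lmo2Tg and 10.7 and 9.60 CPM in Lmo2Tg;p21-/-. It rose by 0.77 (SE 0.21, adjusted p = 0.017) and 0.86 (SE 0.23, adjusted p = 0.018), and each of these calls was lost without single libraries: against WT it was 0.66 (adjusted p = 0.056) without WT replicate 1 and 0.67 (adjusted p = 0.10) without Lmo2Tg library a, and against p21-/- it was 0.59 (adjusted p = 0.14) without p21-/- replicate 2 and 0.77 (adjusted p = 0.10) without Lmo2Tg;p21-/- replicate 1.

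Both BH3-only genes rose in both transgene contrasts. *Pmaip1* was at 2.57, 4.52 and 2.84 CPM in WT, 3.69 and 5.38 CPM in p21-/-, 15.4 and 31.9 CPM in Lmo2Tg, and 9.92 and 10.9 CPM in Lmo2Tg;p21-/-. Its rise over WT was 7.15-fold (log2 2.84, SE 0.31, adjusted p = 6.7e-05), and its rise over p21-/- was 2.31-fold (log2 1.21, SE 0.36, adjusted p = 0.026). The former was 2.21 on the log2 scale without Lmo2Tg library b and 3.27 without library a, and it was called in both cases. The latter call was lost without p21-/- replicate 1 (0.96, adjusted p = 0.15) and without either Lmo2Tg;p21-/- replicate (1.26 and 1.12, adjusted p = 0.080 and 0.091). *Bbc3* was at 3.55, 4.45 and 4.90 CPM in WT, 4.10 and 4.56 CPM in p21-/-, 13.97 and 10.73 CPM in Lmo2Tg, and 8.56 and 9.17 CPM in Lmo2Tg;p21-/-. It rose 2.87-fold over WT (log2 1.52, SE 0.18, adjusted p = 0.00012) and 2.05-fold over p21-/- (log2 1.04, SE 0.21, adjusted p = 0.0036). All 4 transgenic libraries were above the other 5 for both genes, as for 7 of the 10 and 17.9% of all genes.

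For *Mdm2* and *Trp53inp1* edgeR called only one of the contrasts. *Mdm2* was at 107, 108 and 94.2 CPM in WT, 101 and 123 CPM in p21-/-, 165 and 131 CPM in Lmo2Tg, and 128 and 123 CPM in Lmo2Tg;p21-/-. It rose by 0.52 over WT (SE 0.11, adjusted p = 0.0051), or by 0.35 (adjusted p = 0.065) without Lmo2Tg library a, and differed by 0.17 between Lmo2Tg;p21-/- and p21-/- (SE 0.13, adjusted p = 0.34). *Trp53inp1* was at 377, 331 and 311 CPM in WT, 381 and 296 CPM in p21-/-, 491 and 382 CPM in Lmo2Tg, and 573 and 555 CPM in Lmo2Tg;p21-/-. It rose by 0.73 over p21-/- (SE 0.15, adjusted p = 0.0034), and over WT it differed by 0.36 (SE 0.13, adjusted p = 0.052). That difference from WT was called by DESeq2 (adjusted p = 0.015), with no filter (0.021), with at least 1 CPM in every library (0.042), with RLE size factors (0.0495), and without WT replicate 1 (0.039) or Lmo2Tg library b (0.020). For neither gene was the difference between these contrasts called (adjusted p = 0.30 and 0.35).

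edgeR called *Sesn2*, *Ddit4* and *Trp53* in neither transgene contrast with all libraries. *Sesn2* ranged from 5.21 to 9.17 CPM over the 5 non-transgenic libraries and from 7.59 to 10.5 CPM over the 4 transgenic ones, and its log2 differences were 0.48 over WT (SE 0.23, adjusted p = 0.13) and 0.18 over p21-/- (SE 0.25, adjusted p = 0.62). *Ddit4* ranged from 22.0 to 27.1 CPM and from 22.8 to 30.9 CPM in the same libraries, with differences of 0.25 (SE 0.12, adjusted p = 0.13) and -0.22 (SE 0.13, adjusted p = 0.23), and the former was 0.40 and called (adjusted p = 0.040) without Lmo2Tg library b. *Trp53* was at 241, 240 and 299 CPM in WT, 247 and 245 CPM in p21-/-, 204 and 224 CPM in Lmo2Tg, and 233 and 253 CPM in Lmo2Tg;p21-/-. Its difference of -0.28 between Lmo2Tg and WT (SE 0.10, adjusted p = 0.054) missed the threshold. It was called lower by DESeq2 (adjusted p = 0.035), with no filter (0.033), and without WT replicate 1 (0.049) or 2 (0.048).

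Other markers separated the same genotypes. The summed markers of earlier T progenitors, such as *Kit*, were 95.7 to 122 CPM in WT and p21-/- libraries, 388 and 268 CPM in Lmo2Tg, and 477 and 383 CPM in Lmo2Tg;p21-/-. Of the 6 tested, 5 were called higher in Lmo2Tg than in WT. The paper names *Kit*, *Hhex* and *Lyl1* of this list as downstream targets of *Lmo2*. They averaged 164, 78.2 and 51.4 CPM in Lmo2Tg, so this sum cannot tell a difference of stage from the transgene's own targets. The DN3 markers summed to 12040 to 13100 CPM in non-transgenic and 9776 to 10830 CPM in transgenic libraries, and 9 of 14 were called lower in Lmo2Tg, with *Ptcra*, the pre-T-cell receptor alpha gene, at 134 to 186 CPM in WT and at most 55.6 CPM in Lmo2Tg. Of markers of later thymocytes, 5 of 8 were called higher and 2 lower, of myeloid cells 3 and 1 of 9, of erythroid cells 1 and 0 of 6, of thymic stroma 1 and 2 of 4, and of B cells 0 and 2 of 5. Of all genes, 19.7% were called higher and 16.9% lower in this contrast. The B cell markers summed to 55.6 to 68.2 CPM in non-transgenic and 32.5 to 38.1 CPM in transgenic libraries. Whether the p53 targets would differ at equal stage was not tested.

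Loss of *p21* by itself left all 10 genes without a call. For p21-/- against WT, none passed an adjusted or an unadjusted p of 0.05 in edgeR, DESeq2 called 0 and limma-voom called 0, where edgeR called 0.11% of all genes and 3.3% had an unadjusted p under 0.05. The log2 differences ran from -0.36 for *Zmat3* (SE 0.25) to 0.45 for *Pmaip1* (SE 0.36), with a median of 0.00, and their smallest adjusted p was 0.98. With SEs of 0.36, 0.25, 0.23, 0.22 and 0.20, a change of the size of the *Ccng1* rise above was not detectable for *Pmaip1*, *Zmat3*, *Sesn2*, *Phlda3* or *Bbc3*. With only 0.11% of genes called, a missing call by itself does not exclude such a change in the other genes of the set. *Cdkn1a* itself fell 2.56-fold in this contrast (adjusted p = 0.0082).

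For Lmo2Tg;p21-/- against Lmo2Tg, none was called by edgeR (against 6.94% of genes), and 3 had an unadjusted p under 0.05 (against 25.5%), of which *Pmaip1* and *Bbc3* were lower and *Trp53inp1* higher. *Pmaip1* differed by -1.18 (SE 0.32, adjusted p = 0.053), *Bbc3* by -0.47 (SE 0.19, adjusted p = 0.16) and *Trp53inp1* by 0.37 (SE 0.15, adjusted p = 0.15). The *Pmaip1* value depended on which Lmo2Tg library was used, since it was -0.56 without Lmo2Tg library b and -1.62 without library a. DESeq2 called *Pmaip1* (adjusted p = 0.0061), and limma-voom did not (adjusted p = 0.066). *Zmat3*, *Phlda3*, *Ccng1* and *Sesn2* differed by 0.03, 0.08, 0.08 and -0.07, with SEs of 0.22, 0.23, 0.08 and 0.25. The median over the 10 was -0.02. With only 2 libraries a group, 3 of the 10 were higher and 4 lower without overlap, *Pmaip1* and *Bbc3* among the latter (against 29% and 25.7% of all genes). In the same contrast *Cdkn1a* fell 7.55-fold (adjusted p = 9.1e-05).

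**Figure D4:**
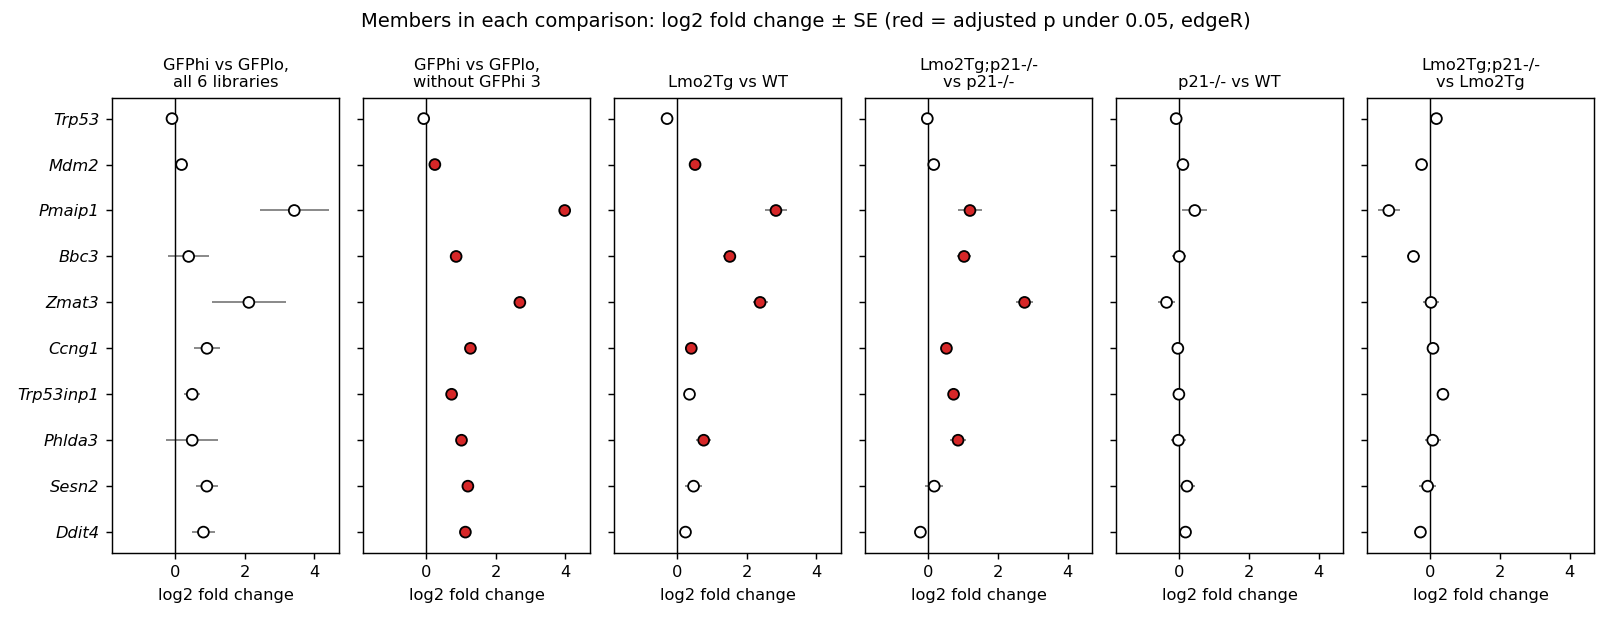
Log2 fold change of each gene (points, horizontal axis) with its SE (bars) in 6 comparisons, red where the adjusted p was under 0.05 in edgeR's quasi-likelihood test. Red points fill the panels of GFPhi against GFPlo without GFPhi replicate 3 (9 of 10) and of both transgene contrasts (6 of 10 each), and there are none in the panels of all 6 GFP libraries or of *p21* loss.

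Whether *p21* loss acted differently with and without the transgene was tested as the interaction, (Lmo2Tg;p21-/- minus Lmo2Tg) minus (p21-/- minus WT). None of the 10 was called by edgeR (against 1.38% of genes), and *Pmaip1* (-1.63, SE 0.48, adjusted p = 0.12) and *Ddit4* (-0.46, SE 0.18, adjusted p = 0.20) had an unadjusted p under 0.05 (2 of 10, against 18.1%). DESeq2 called *Pmaip1* alone (adjusted p = 0.016) and limma-voom called 0. Without Lmo2Tg library b the *Pmaip1* term was -1.01 (adjusted p = 0.29), and without library a it was -2.06 (adjusted p = 0.048). *Zmat3* had an interaction of 0.38 (SE 0.34) and *Ccng1* of 0.12 (SE 0.11).

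The rest of the p53 network was listed beside the set, and it did not move as one. Among apoptosis targets outside the set, 6 were called higher and 2 lower of 13 tested in GFPhi cells without replicate 3 (against 19.5% higher and 21.7% lower over all genes), with *Ei24* (0.96), *Bax* (0.83), the pore-forming BCL2 relative, and *Aen* (0.70) the largest rises, and *Perp* and *Steap3* (-0.66) the falls. In Lmo2Tg against WT, 5 rose and 4 fell (against 19.7% and 16.9%), with *Fas* (1.14), the death receptor gene, and *Bax* (0.46) among the rises. In Lmo2Tg;p21-/- against p21-/-, 3 rose and 2 fell (against 16.3% and 14.4%), *Fas* again among them (0.78). *Perp*, which encodes a desmosome protein, stood at only 0.0620 CPM in WT and 1.10 CPM in Lmo2Tg. Their medians were 0.29, 0.07 and 0.11, against 1.08, 0.50 and 0.63 for the 10 genes. For GFPhi cells this difference is not independent evidence, since the paper had named part of the 10 for their rise there.

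Among targets for cell-cycle arrest and DNA repair, 6 rose and 3 fell of 14 tested in GFPhi cells without replicate 3 (against 19.5% and 21.7% of all genes). *Cdkn1a* (1.67), *Psrc1* (1.59) and *Plk2* rose, and *Rprm*, *Ddb2* (-0.42) and *Rrm2b* (-0.24) fell, the last pair being genes of DNA repair and nucleotide supply. In Lmo2Tg against WT, 5 of 13 rose (against 19.7% of all genes), led by *Plk2* (2.52), *Plk3* (2.15) and *Gadd45a* (1.57). *Cdkn1a* (-0.47) and *Polk* (-0.34) fell, 2 of 13 against 16.9% of all genes. In Lmo2Tg;p21-/- the kinase genes *Plk2* (-3.67) and *Plk3* (-2.51) and *Gadd45a* (-1.38) were lower than in Lmo2Tg, 4 of 13 called lower with *Cdkn1a* (against 3.59% of genes) and 1 higher (*Polk*, against 3.35%). Against p21-/-, 3 of 13 rose and *Cdkn1a* fell (against 16.3% and 14.4% of all genes). The medians were 0.37, 0.21, 0.00 and 0.06 in these 4 contrasts.

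Metabolic, antioxidant and other targets had 2 rises and 7 falls of 17 tested with label retention, against 19.5% and 21.7% of all genes. Among them were *Lif* (2.63), a cytokine gene, upward, and *Sulf2* (-2.28), *Gls2* (-1.32), the p53-responsive glutaminase, and *Pltp* (-0.99) downward. With the transgene 4 rose and 2 fell of 15 over WT (against 19.7% and 16.9% of all genes), led by *Sulf2* and *Lif* (2.23). Over p21-/-, 4 rose and 2 fell (against 16.3% and 14.4%), led by *Ptp4a3* (1.10). Of 16 regulators of p53, *Cdkn2a*, which encodes the MDM2 inhibitor ARF and the CDK inhibitor INK4a, went from 0.0626 CPM in WT and 0.0949 CPM in p21-/- to 8.09 CPM in Lmo2Tg and 7.04 CPM in Lmo2Tg;p21-/-, and it rose by 0.90 in GFPhi cells. *Mdm4*, the close relative of *Mdm2*, rose by 0.32 in GFPhi cells, 0.46 over WT and 0.42 over p21-/-. In all, 5 of the 16 regulators rose and 1 fell in GFPhi cells, 3 rose over WT, and 3 rose and 1 fell over p21-/-. The same shares of all genes apply here. GFP values in these lists are without GFPhi replicate 3. With it, 1 apoptosis target was called higher and 1 lower, 1 arrest or repair target higher and 1 lower, 2 regulators higher and 1 lower, and 0 metabolic targets (against 5.37% of genes higher and 9.49% lower).

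**Figure D5:**
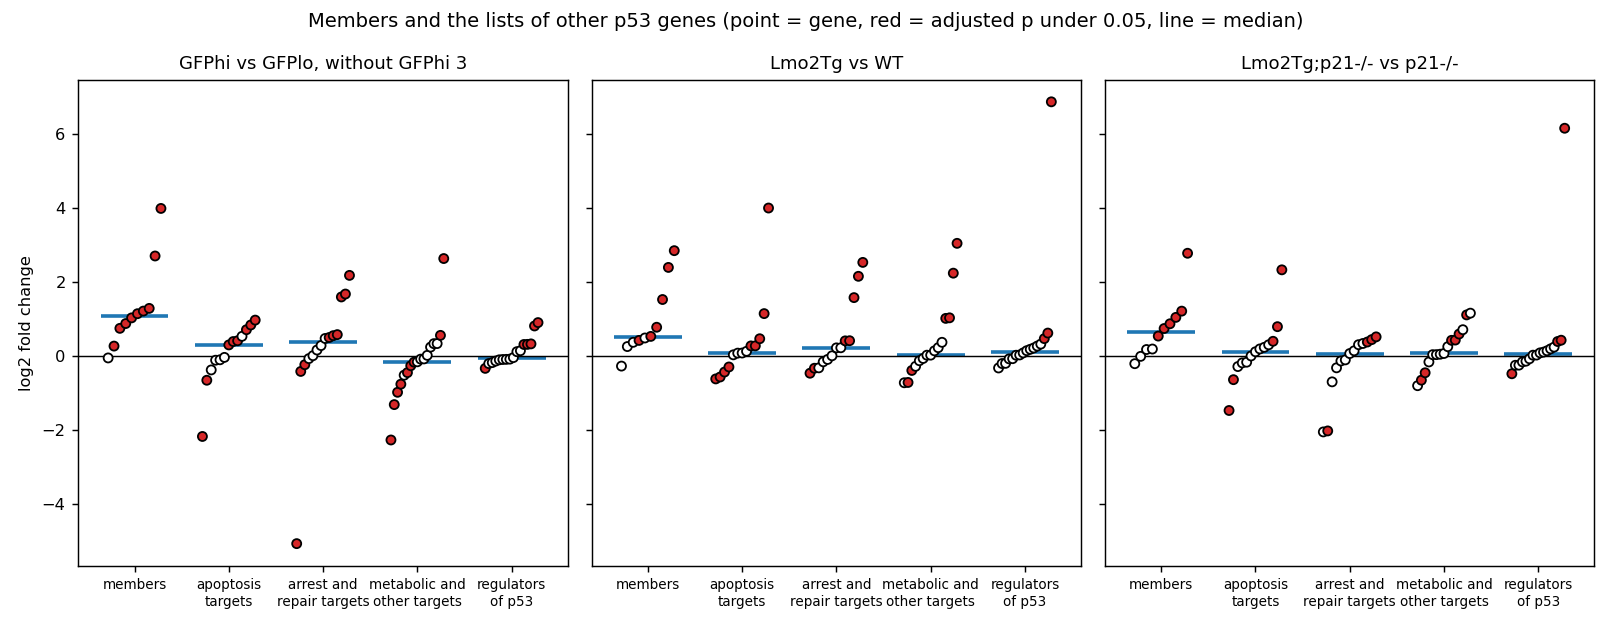
Log2 fold change (vertical axis) of each tested gene of the 10-gene set and of 4 lists of other p53 genes in 3 comparisons, red where the adjusted p was under 0.05 in edgeR's test, with a blue line at the median. The set has the highest median in each panel, while the other lists spread to both sides of 0. In the GFPhi panel this is not independent evidence, since the paper had named part of the set for its rise there.

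Close relatives of the set in sequence did not simply follow their partners. In GFPhi cells without replicate 3, *Sesn3* rose (1.06) as *Sesn2* did but *Sesn1* fell (-0.46), and *Ccng2* fell (-0.55) where *Ccng1* rose. *Trp53inp2* rose (1.76). Of 7 relatives tested, 3 were called higher and 2 lower (against 19.5% and 21.7% of all genes), or 2 and 1 over all 6 libraries. In Lmo2Tg over WT, 4 of 7 were called higher and 0 lower (against 19.7% and 16.9% of all genes). These were *Phlda1* (3.25), *Trp53inp2* (2.46), *Ccng2* (0.76) and *Mdm4*, and the first pair fell on loss of *p21*, by 1.04 and 2.33. Over p21-/-, *Phlda1* (1.48), *Ccng2* (0.61) and *Mdm4* rose and *Sesn3* (-0.47) fell. Among other BH3-only genes, *Bcl2l11* (BIM) had a course like that of *Pmaip1* in the genotypes, at 60.4 CPM in WT, 61.9 CPM in p21-/-, 120 CPM in Lmo2Tg and 68.0 CPM in Lmo2Tg;p21-/-, with a called rise over WT (0.99, adjusted p = 0.00019) and a called fall on *p21* loss (-0.82, adjusted p = 0.0099). Of 4 tested over WT, *Bcl2l11* alone rose and *Bmf* (-0.44) fell, and in GFPhi cells without replicate 3, 2 of 5 rose and 1 fell, or 0 and 1 over all 6 libraries.

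*Sesn2* and *Ddit4* also answer to ATF4 in the integrated stress response, and *Ddit4* to the glucocorticoid receptor, so those lists were examined. In GFPhi cells without replicate 3, 4 of 12 ATF4 targets rose, *Sesn2* and *Ddit4* with the largest changes, and 4 fell, led by *Slc7a11* (-2.70), the cystine transporter gene, and *Asns* (-1.26), where 19.5% of all genes rose and 21.7% fell. The list median was -0.00. Of 8 glucocorticoid receptor targets 4 rose, led by *Klf9* (0.0678 CPM on average in GFPlo, under the level of 3 counts), *Sgk1* (1.21) and *Ddit4*, and 2 fell, *Cdkn1c* (-2.06) and *Tsc22d3* (-0.43). Of 12 FoxO targets 4 rose, led by *S1pr1* (2.90), and 3 fell, led by *Il7r* (-0.86). Over all 6 libraries, 0 ATF4 targets were called higher and 1 lower, 2 and 1 glucocorticoid receptor targets, and 1 and 1 FoxO targets (against 5.37% and 9.49% of all genes). In Lmo2Tg over WT, where *Sesn2* and *Ddit4* were not called, 5 of 13 ATF4 targets, 6 of 9 glucocorticoid receptor targets and 8 of 12 FoxO targets rose, and 1, 2 and 2 fell. Over p21-/- these lists had 0, 1 and 5 rises and 4, 2 and 1 falls. Of all genes, 19.7% rose and 16.9% fell over WT, and 16.3% and 14.4% over p21-/-. Of 21 proliferation genes, 1 was called lower in GFPhi cells without replicate 3, 2 in Lmo2Tg against WT, and 18 in Lmo2Tg;p21-/- against p21-/-, with none higher in any of these, and 0 were called over all 6 GFP libraries. Their summed level was 4385 CPM in GFPhi replicate 3, against 6099 and 6811 CPM in GFPhi replicates 1 and 2.

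Since *Zmat3* had the widest range, the genes most like it over all 15 libraries were sought, with each table centred on its own mean of log2 CPM. Among 11252 genes tested in both tables, *Rwdd2a* (Pearson's r 0.99), *Dennd2d* (0.98), *Chd7* (0.97), *Map4* (0.97) and *Cndp2* (0.97) were closest. *Chd7*, a chromatin remodeler gene, was at 7.66 to 18.7 CPM in GFPlo, 61.6, 63.6 and 1.94 CPM in GFPhi replicates 1 to 3, 3.21 to 4.72 CPM in non-transgenic and 22.6 to 29.5 CPM in transgenic libraries. *Dennd2d* was at 102 to 116 CPM in GFPlo and at 298, 310 and 55.4 CPM in GFPhi. Of the set, *Bbc3* ranked 22 of 11252 (r 0.94), followed by *Ccng1* at 79 (0.90), *Phlda3* at 100 (0.90), *Pmaip1* at 125 (0.88) and *Trp53inp1* at 211 (0.85). *Sesn2*, *Ddit4* and *Mdm2* ranked from 821 to 1145, and *Trp53* had an r of -0.27. *Cdkn1a* followed *Zmat3* in the label-retention table (r 0.97) and not in the genotype table (-0.49), where it was deleted in 4 of the 9 libraries. These values describe the 15 libraries, which are not independent points, since libraries of a group share its level.

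Levels of different genes were compared per kilobase of exon. In GFPlo they were, in CPM per kilobase (mean ± SD, n = 3), 87.8 ± 7.19 for *Trp53inp1*, 68.2 ± 1.15 for *Trp53*, 40.9 ± 2.07 for *Ccng1*, 22.6 ± 0.145 for *Mdm2*, 14.9 ± 1.18 for *Ddit4*, 8.98 ± 0.660 for *Phlda3*, 7.29 ± 0.436 for *Bbc3*, 2.91 ± 0.501 for *Sesn2*, 2.46 ± 0.478 for *Zmat3* and 1.07 ± 0.251 for *Pmaip1*. *Sesn2* and *Zmat3* are neighbours in this order that did not differ beyond their SDs. In WT, *Trp53* (64.3 ± 8.28) and *Trp53inp1* (52.4 ± 5.29) were likewise within their SDs, as were *Bbc3* (2.03 ± 0.322) with *Sesn2* (1.86 ± 0.361) and *Sesn2* with *Pmaip1* (1.21 ± 0.385), and *Zmat3* was lowest at 0.567 ± 0.138. In GFPhi replicates 1 and 2, *Pmaip1* (16.7) and *Zmat3* (15.8) stood above *Bbc3* (13.3), which both were below in GFPlo.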

How the data were processed

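Poly-A RNA of sorted DN3 cells was sequenced. The authors deposited unnormalized counts of reads for each protein-coding gene, from reads aligned to mm10 with STAR 2.4.2a and counted with featureCounts, as named in the submitters' processing notes. By the tables' names the label-retention table was counted by strand and the genotype table without it, so they were never joined in a fit. Only the correlations with *Zmat3* used both, each centred on its own mean. The genotype table has 1 column that matched no sample's labels, which was not used, the sample labelled p21-/- replicate 3 was not analysed here, and its Lmo2Tg columns carry no sample number (libraries a and b). Genes were kept by edgeR's filterByExpr (minimum count 10, total 15). Each comparison was a contrast in edgeR's quasi-likelihood fit (edgeR 4.0.16, R 4.3.3) of a table with a term per group and TMM scaling, with adjusted p under 0.05 called, and the fit without GFPhi replicate 3 was added after seeing that library. DESeq2 1.42.0 and limma-voom (limma 3.58.1) were alternatives, and all fits were tested on simulated counts. A count of 0 allows up to 3 counts, or 0.0964 to 0.112 CPM and 0.178 to 0.216 CPM in the respective tables. No replicate pair agreed within sampling noise. The labels state no pairing and same-numbered libraries had no steady correlation, so numbers were not used to pair them, although a shared origin is not excluded.

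The 10 genes and all lists were chosen with earlier results of these data known. Named genes were the 10, *Cdkn1a*, *Lmo2*, the 5 genes most like *Zmat3*, and of each list called members with the largest change, at most 3 each way per comparison, plus markers that define a cell type. Exon lengths came from GENCODE M21, which matched 21798 of 22114 gene identifiers. Promoter windows of *Pmaip1*, *Zmat3* and *Trp53inp1* were not analysed here.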

Additional observations from a re-analysis of the deposited data

How the results depend on the processing

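The count of the 10 genes called was 0 in GFPhi against GFPlo and 4 by DESeq2, which called 2912 genes in all against 1721. Leaving out 1 library at a time gave 0 to 9, and 9 came from leaving out GFPhi replicate 3. Without that library, all alternatives gave 6 to 9, among them limma-voom and DESeq2 with 9, and leaving out a further library gave 8 to 9, *Mdm2* being lost without GFPhi replicate 1 (adjusted p = 0.059) or 2 (adjusted p = 0.0501). These alternatives were chosen after seeing the data. In Lmo2Tg;p21-/- against Lmo2Tg, DESeq2, no filter on low counts and a filter of at least 1 CPM in every library each gave 1, and leaving out 1 library gave 0 to 1. The interaction gave 1 by DESeq2 and 1 with no filter, with 459 and 520 genes in all against 163, and 0 to 1 with 1 library left out. The gene called in each of these was *Pmaip1*. At an adjusted p of 0.01 and more than 2-fold, 3 of the 10 were called in Lmo2Tg against WT and 2 in Lmo2Tg;p21-/- against p21-/-, and leaving out 1 library gave 4 to 8 and 4 to 5. DESeq2 and no filter gave 8 in Lmo2Tg against WT, with *Trp53inp1* higher and *Trp53* lower beside the 6. For p21-/- against WT every alternative gave 0.

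*Phlda3* in GFPhi against GFPlo turned from 0.50 to -0.074 by limma-voom. The other directions that turned were of smaller differences. For p21-/- against WT, *Trp53inp1* was 0.0011 with at least 1 CPM in every library, and leaving out 1 library moved *Sesn2* from -0.10 to 0.50, *Phlda3* from -0.37 to 0.26, *Bbc3* from -0.11 to 0.11, *Mdm2* from -0.034 to 0.24, *Ccng1* from -0.081 to 0.0080, *Trp53inp1* from -0.20 to 0.17 and *Trp53* from -0.14 to 0.028. For Lmo2Tg;p21-/- against Lmo2Tg the ranges were -0.19 to 0.27 for *Zmat3*, -0.29 to 0.17 for *Sesn2* and -0.019 to 0.17 for *Phlda3*. Against p21-/- they were -0.092 to 0.51 for *Sesn2* and -0.084 to 0.027 for *Trp53*, and for the interaction -0.57 to 0.032 for *Sesn2* and -0.18 to 0.45 for *Phlda3*. The cause was not tested.

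With the replicate number as a block, the counts were 0 in GFPhi against GFPlo, 9 without GFPhi replicate 3, 0 in p21-/- against WT and 6 in Lmo2Tg;p21-/- against p21-/-, and in p21-/- against WT *Phlda3* was 0.13 and *Trp53* 0.028. Same-numbered libraries had correlations of -0.24 to 0.30. Since deviations were taken from means of 2 or 3 libraries, these values cannot show whether same-numbered libraries share an origin. The paper profiled GFPhi and GFPlo cells from the same 3 independent cohorts of mice, as pooled samples. The labels do not match these cohorts to replicate numbers, so pairing by cohort was not used. No block could be fitted for Lmo2Tg. With 2 or 3 libraries a group, small differences were not detectable for genes with a wide spread between libraries.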
